A study of Homo sapiens with 402 samples.

Results

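The HSP70 family genes described here are HSPA1A, HSPA1B, HSPA6, HSPH1, HSPA8, HSPA9, HSPA4, HSPA1L, HSPA2 and HSPA4L, taken by symbol from the count files. These 10 genes were among 34718 symbols listed for 4 of the plates and 15081 symbols listed for the fifth (DDE) plate, and each was found on every plate. The cells were MCF10A, a wild-type, non-tumorigenic epithelial line from human breast, so every group comes from 1 cell line. They were exposed for 48 h to 21 chemicals at 0.025, 0.25, 2.5 and 25 µM, with 4 wells per dose in most groups, and lysates were sequenced by a plate-based method in which each well carries its own barcode. The study asked how gene expression in breast epithelial cells responds to chemicals chosen for unequal exposure between populations.

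Each chemical was compared with the solvent wells of its own plate. The metals plate carried 15 water controls beside mercury, lead, copper, cadmium and arsenic. The BPA plate carried 15 DMSO controls beside PPB, MPB, BPS, BPF and BPA, and MPB and PPB had 3 wells each at 0.025 µM. On the PFOA plate, 12 DMSO controls served PFOS, phenanthrene, PFNA and PFDA, and 4 water controls served PFOA. The thiram plate carried 15 DMSO controls beside thiram, PCB187, PCB153, DCP_25 and DCB_14. The DDE plate carried 16 DDE wells, labelled DMSO, and 8 controls whose labels name water and the metals plate but whose barcode is that of the DDE plate. The labels call the 4 wells of a dose biological replicates. The wells share a cell line and a plate, so the p-values measure the spread between wells.

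HSP70 proteins are ATP-driven chaperones that hold unfolded stretches of other proteins and release them for refolding, transport or degradation. J-domain proteins deliver the clients and stimulate ATP hydrolysis, and nucleotide exchange factors reset the cycle. Cells keep some HSP70 genes on at all times and switch on others when heat, metals or other agents damage proteins, through heat shock factor HSF1 and its binding to inverted GAA repeats upstream of the target genes. The inducible group here is HSPA1A and HSPA1B, neighbouring genes for nearly identical cytosolic HSP70 proteins, HSPA6, a strictly stress-induced HSP70, and HSPH1, the HSP110 exchange factor. The constitutive group is HSPA8, the main cytosolic housekeeping HSP70 (HSC70), HSPA9, the mitochondrial HSP70 (mortalin), and HSPA4, an HSP110-type exchange factor. The restricted group is HSPA1L, HSPA2 and HSPA4L, known best from testis.

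The upstream sequences of 4 members are shown because the report turns on these inducible genes and on HSPA8, their constitutive relative. Each is the 250 bases before the RefSeq transcript start in GRCh38.p14, 5′ to 3′ on the gene's strand. Capitals mark 2 inverted units of the heat shock element, GAANNTTC or TTCNNGAA, or 3 alternating units, GAANNTTCNNGAA or TTCNNGAANNTTC, where matches overlap. Each pair of patterns covers both strands.
HSPA1A: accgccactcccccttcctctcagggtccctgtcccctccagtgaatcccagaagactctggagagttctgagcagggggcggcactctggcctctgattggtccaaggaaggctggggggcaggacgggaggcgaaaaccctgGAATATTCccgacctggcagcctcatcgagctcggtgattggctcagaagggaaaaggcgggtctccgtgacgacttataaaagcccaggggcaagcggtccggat
HSPA1B: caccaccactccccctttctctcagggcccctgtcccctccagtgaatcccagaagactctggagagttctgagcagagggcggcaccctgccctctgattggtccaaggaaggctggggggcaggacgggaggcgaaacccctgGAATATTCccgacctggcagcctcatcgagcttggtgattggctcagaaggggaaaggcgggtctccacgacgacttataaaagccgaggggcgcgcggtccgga
HSPA6: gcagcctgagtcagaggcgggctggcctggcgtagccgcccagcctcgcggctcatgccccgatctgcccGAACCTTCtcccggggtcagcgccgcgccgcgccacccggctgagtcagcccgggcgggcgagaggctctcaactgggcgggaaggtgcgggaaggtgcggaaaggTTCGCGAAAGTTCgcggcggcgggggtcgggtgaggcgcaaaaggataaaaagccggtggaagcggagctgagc
HSPA8: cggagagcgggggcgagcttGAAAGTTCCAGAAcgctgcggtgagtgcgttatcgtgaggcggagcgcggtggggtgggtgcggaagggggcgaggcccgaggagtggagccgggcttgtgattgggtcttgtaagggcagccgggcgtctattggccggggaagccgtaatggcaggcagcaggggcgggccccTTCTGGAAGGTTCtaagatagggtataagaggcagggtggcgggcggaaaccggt
The windows lie at chr6:31815293-31815542 (+), chr6:31827488-31827737 (+), chr1:161524290-161524539 (+) and chr11:123062137-123062386 (-).

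All 10 members matched the RefSeq promoter table, in 12 windows. The 2-unit motif was present upstream of 6 members (HSPA1A, HSPA1B, HSPA6, HSPA8, HSPA1L and HSPA4L), and 11.6% of the 35116 windows in that table hold it. The 3-unit motif, which contains the 2-unit motif, was present upstream of HSPA6, at bases -74 to -62 from the transcript start, and of HSPA8, at -230 to -218 and at -55 to -43. It occurs in 0.441% of all windows. The HSPA1A and HSPA1B windows were 94.4% identical, with 235 of 249 bases matching at a shift of 1 base. By these RefSeq starts, HSPA1A and HSPA1L start 260 bases apart and point away from each other, so their windows overlap and hold the same 2-unit match. Reads of HSPA1A and HSPA1B cannot be cleanly separated where the genes are alike, and how the authors' counting treated such reads is not given in the sources used here.

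In GRCh38 with the GENCODE annotation, HSPA1L (chr6:31809619-31815065), HSPA1A (chr6:31815464-31817946) and HSPA1B (chr6:31827735-31830255) lie together on chromosome 6. HSPA6 is at chr1:161524540-161526910, HSPH1 at chr13:31134974-31162388 and HSPA8 at chr11:123057489-123063230. HSPA9 (chr5:138553756-138575724) and HSPA4 (chr5:133051962-133106449) share chromosome 5, HSPA2 is at chr14:64535905-64546173 and HSPA4L at chr4:127781821-127840733. The GENCODE starts are not always the RefSeq starts used for the windows above. The HSPA8 window lies inside the GENCODE bounds of HSPA8, and the HSPA1A window runs past the GENCODE start of HSPA1A. The counts cover the exons of each gene as summed by the authors.

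The libraries tested held 1.43 M to 25.8 M counted reads, with plate medians of 13.9 M, 12.6 M, 11.9 M and 13.3 M on the metals, BPA, PFOA and thiram plates and 6.42 M for DDE. All 9 epithelial markers searched for (such as KRT5, KRT6A and EGFR) averaged at least 1 CPM (counts over edgeR's TMM-scaled library size, not over all reads of the library) in the controls of every plate, and the 3 listed immune markers (CD3E, CD68 and PTPRC) summed to at most 1.16 CPM in any control well of the metals, BPA, PFOA and thiram plates. Of 4 luminal markers, 2 averaged at least 1 CPM in the controls of every plate, and PGR was at 0 in the controls of the metals, BPA, PFOA and thiram plates. The 4 listed fibroblast markers summed to 14.04 to 144.4 CPM over the control wells of these 4 plates, on average mostly DCN. DCN averaged higher than the epithelial markers CDH1 and EPCAM in each of these control groups. The endothelial markers (CDH5, PECAM1 and VWF) summed to at most 6.37 CPM there, PECAM1 averaging highest. In the DDE controls the 2 listed fibroblast markers summed to 13.92 to 25.17 CPM and PECAM1 reached 10.64 CPM. The source of these reads was not tested. The 2 cadmium wells at 25 µM stood apart. They had 1.43 M and 1.46 M reads, 39.3% and 46.8% of them from mitochondrial genes against 4.56% to 13.6% in the other 399 libraries, and 0 reads of the epithelial marker TP63. Their 9 epithelial markers summed to 9357 and 10150.0 CPM, against 3969 to 4653 CPM in the controls of that plate. The single markers went both ways. LAMB3 averaged 4999 against 537 CPM, KRT17 1513 against 442 CPM, KRT6A 2454 against 1695 CPM and KRT14 143 against 105 CPM. Lower with cadmium, besides TP63, were KRT5 (601 against 1189 CPM), EGFR (33.8 against 176.5), EPCAM (5.17 against 44.5) and CDH1 (2.51 against 23.9). Single epithelial markers also moved in both directions in the arsenic and thiram wells at 25 µM. With arsenic, KRT17 and LAMB3 averaged 791 and 1830 CPM against 442 and 537 CPM in controls. With thiram they averaged 973 and 1480 CPM against 228.5 and 502.5 CPM, and KRT14 averaged 93.2 against 22.6 CPM. The other epithelial markers averaged lower in each group. KRT5 averaged 116 ± 22.5 CPM with arsenic against 1189 ± 142 CPM in controls, and 465 ± 149 CPM with thiram against 1226 ± 129.5 CPM. TP63 ran from 0 to 1.36 CPM with arsenic against 7.30 to 26.1 CPM, and from 0 to 2.45 CPM with thiram against 1.07 to 8.97 CPM, where the groups overlapped. The thiram wells held 2.46 M to 6.29 M reads, against a median of 15.1 M in their controls. The part of these shifts in the members' values was not tested. Another cadmium library labelled 25 µM carries the barcode of the thiram plate and was set aside from the tests. Its member values and mitochondrial share go against its title: it had 0 reads of HSPA6 and HSPA1B, 24.9 CPM of HSPA1A, 237 CPM of HSPH1 and 10.0% mitochondrial reads. Its depth does not: it held 1.285 M reads and 10734 detected genes, close to the 2 cadmium wells (median 10410 genes). The lowest library tested on the thiram plate held 2.31 M reads. Lysates were measured in bulk, so fewer cells and less RNA per cell cannot be told apart.

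In the untreated cells the family spanned more than 3 orders of magnitude per kb of exon, with HSPA8 far above the rest. The exon length merges all annotated transcripts of a gene, 4849 bases for HSPA8 and 2483 bases for HSPA1A. It can exceed the length of any 1 transcript, so levels of different genes per kb are approximate. Mean levels in the 15 water controls of the metals plate, in CPM per kb of exon, fell in the order HSPA8 (805), HSPA9 (122), HSPA4 (55.8), HSPH1 (18.4), HSPA1A (8.55), HSPA4L (6.45), HSPA1B (3.38), HSPA2 (1.22), HSPA1L (0.409) and HSPA6 (0.275). In CPM, HSPA8 ran from 3144 to 4678 (median 3557), HSPA9 from 824 to 1198 (median 978) and HSPA4 from 240.1 to 357 (median 285). HSPH1 ran from 113 to 262 (median 139) and HSPA1A from 11.6 to 48.8 (median 19.2). HSPA6 ran from 0 to 3.67 (median 0.509), with no read in 4 of the 15 wells. The SDs of HSPA1L (1.04 ± 1.30 CPM, n = 15) and HSPA6 (0.651 ± 0.914 CPM, n = 15) exceeded the means, and these 2 neighbours in the order did not differ beyond their spread. The controls of the thiram plate had the same 6 leading genes in the same order per kb, from 762 for HSPA8 to 10.3 for HSPA1A and 5.26 for HSPA4L. The inducible members together took 3.35% ± 0.35 (SD, n = 15) of the family's reads in the controls of the metals plate and 3.61% ± 0.31 (n = 15) in those of the thiram plate.

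Arsenic, cadmium and thiram at 25 µM raised each of the 4 inducible members more than any other chemical at that dose. Arsenic and thiram each raised 9 of the 10 members and cadmium raised 6, while copper and lead raised 2 each, all against the controls of their plate by edgeR's quasi-likelihood test at a Benjamini-Hochberg adjusted p under 0.05. By edgeR no member was called lower in these 5 groups, while DESeq2 called HSPA2 lower with cadmium and HSPA9 lower with lead. Of all genes tested, 23.2% were higher and 18.2% lower with arsenic, 5.67% higher and 5.38% lower with cadmium, and 13.7% higher and 12.2% lower with thiram. For copper the shares were 2.88% higher and 2.21% lower, and for lead 2.15% higher and 1.7% lower. In cadmium the split moved with the scaling and the method. The TMM scaling of edgeR gave 1378 genes higher and 1306 lower, its RLE scaling gave 1597 and 971, and DESeq2 gave 2806 and 3785. DESeq2 differs from edgeR in its test as well as its scaling, and the part of each was not tested. With DESeq2 the balance also turned for copper, from 700 higher and 536 lower to 491 and 618, and for thiram, from 2927 and 2589 to 3267 and 3456.

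**Figure D1:**
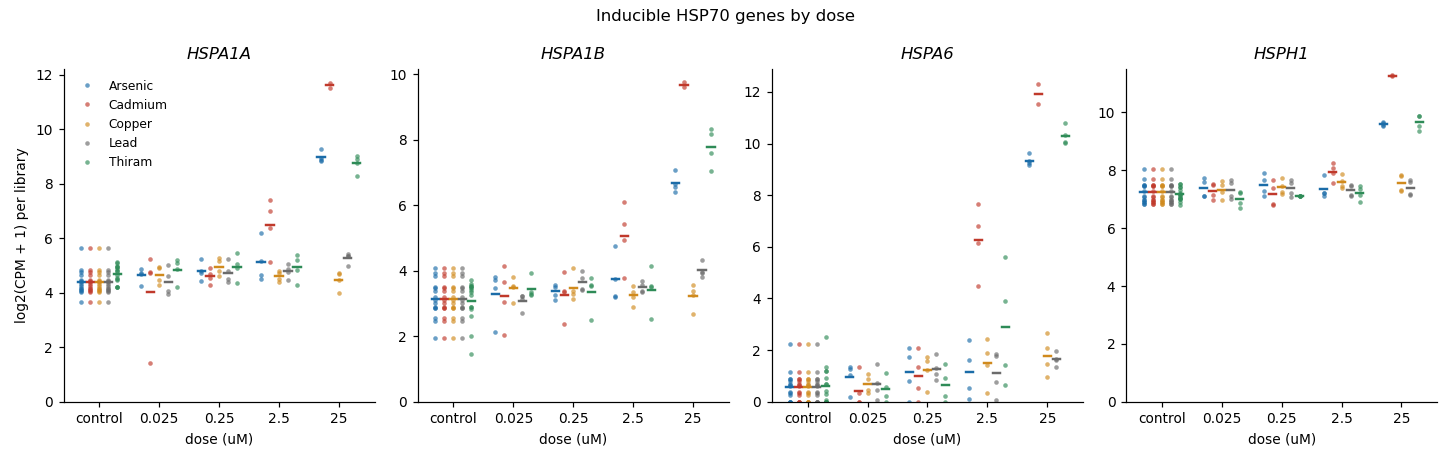
Levels of HSPA1A, HSPA1B, HSPA6 and HSPH1 as log2(CPM + 1) in each control and dosed library of arsenic, cadmium, copper, lead and thiram, points being libraries and bars group means. At 25 µM the arsenic, cadmium and thiram points lie above all control points of their plate, and the cadmium points at 2.5 µM are spread out, with HSPA1A from 34.3 to 169 CPM.

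HSPA1A, the principal heat-inducible HSP70, read 470.03, 617, 461 and 492 CPM in the 4 arsenic wells, against 11.6 to 48.8 CPM in the 15 controls. Its 2 cadmium wells read 2910.5 and 3366 CPM. Its thiram wells read 432, 315, 519 and 479 CPM, against 17.6 to 34.3 CPM in the 15 controls of that plate. Every well of these 3 groups lay above all its controls, and the cadmium wells lay above those of arsenic and thiram. The log2 fold change was 4.69 ± 0.19 (SE, n = 4 and 15) with arsenic, adjusted p = 3.53e-39, 7.31 ± 0.22 (n = 2 and 15) with cadmium, adjusted p = 1.63e-48, and 4.15 ± 0.14 (n = 4 and 15) with thiram, adjusted p = 1.27e-48.

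HSPA1B, its near-copy, read 83.8, 135, 99.8 and 92.6 CPM with arsenic, against 2.82 to 15.96 CPM in the controls. With cadmium it read 777 and 864 CPM, and with thiram 191, 129.8, 322 and 286 CPM against 1.77 to 12.02 CPM. The groups did not overlap their controls. Fold changes on the log2 scale were 3.73 ± 0.20 with arsenic (adjusted p = 3.32e-30), 6.73 ± 0.27 with cadmium (9.66e-39) and 4.67 ± 0.20 with thiram (4.37e-40). HSPA1B took 28.2% ± 6.0 (n = 15) of the reads of the pair in the controls of the metals plate, 16.7% ± 1.4 (n = 4) with arsenic and 20.8% ± 0.46 (n = 2) with cadmium. On the thiram plate it took 24.3% ± 9.4 (n = 15) in controls and 33.9% ± 4.6 (n = 4) with thiram. The cadmium and thiram shares differ from those of their controls by amounts close to the SD of the control wells, and the arsenic share differs by more. All of these shares depend on how reads of the 2 genes were assigned.

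HSPA6, nearly silent in controls, showed the largest fold changes of the family. It read 573, 790.4, 633 and 602 CPM with arsenic, 2979.5 and 5009 CPM with cadmium, and 1275, 1062, 1773 and 1041 CPM with thiram. The highest control well read 3.67 CPM on the metals plate and 4.76 CPM on the thiram plate. Its log2 fold changes were 10.23 ± 0.27 with arsenic (adjusted p = 5.23e-64), 12.85 ± 0.29 with cadmium (8.85e-72) and 10.79 ± 0.23 with thiram (1.42e-88), and with controls near 0 their size depends on the prior count. HSPA7, a near-identical copy of HSPA6 with no read in the controls of these plates, read 1.5003 to 4.67 CPM with arsenic, 12.6 and 26.4 CPM with cadmium and 3.74 to 18.2 CPM with thiram.

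HSPH1, the HSP110 partner that recharges HSP70 with ATP, read 753, 814, 734 and 799.9 CPM with arsenic, against 113 to 262 CPM in the controls. It read 2464 and 2501 CPM with cadmium. With thiram it read 662, 748, 948 and 935 CPM, against 110.4 to 184 CPM. No dosed well overlapped its controls. On the log2 scale the changes were 2.38 ± 0.14 with arsenic (adjusted p = 3.29e-27), 4.06 ± 0.18 with cadmium (1.57e-35) and 2.54 ± 0.11 with thiram (1.05e-40).

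The constitutive members moved far less, and not all in the same groups. HSPA8 read 8431, 8434, 7722 and 8781 CPM with arsenic and 14284 and 12648 CPM with cadmium, against 3144 to 4678 CPM in the controls. With thiram it read 5629.5, 5827, 7543 and 7665 CPM, against 2918 to 4484 CPM. All of these wells lay above their controls. HSPA8's log2 fold changes were 1.10 ± 0.10 with arsenic (adjusted p = 9.87e-17), 1.79 ± 0.13 with cadmium (3.91e-22) and 0.85 ± 0.12 with thiram (1.73e-09).

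HSPA9, which imports and folds proteins in mitochondria, rose with arsenic and thiram. It read 1649, 1621, 2039.6 and 2096 CPM with arsenic against 824 to 1198 CPM in controls, without overlap. Its cadmium wells read 922 and 846 CPM, inside the control range. Its thiram wells read 981, 1051, 1256 and 1074 CPM, all above the controls at 719 to 929.7 CPM. The log2 fold changes were 0.88 ± 0.09 with arsenic (adjusted p = 1.27e-15), 0.43 ± 0.07 with thiram (2.44e-07) and -0.18 ± 0.14 with cadmium (0.625), the last not called.

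HSPA4, the constitutive HSP110-type exchange factor, rose in 4 groups. It read 517, 546, 506 and 524 CPM with arsenic, 414 and 454 CPM with cadmium and 324, 327, 398 and 422 CPM with copper, against 240.1 to 357 CPM in the shared controls. It read 445, 438, 419.9 and 303 CPM with thiram, against 203 to 326 CPM. The arsenic and cadmium wells lay above all controls, while 2 copper wells and 1 thiram well lay inside the control range. Its fold changes, in log2, were 0.88 ± 0.09 with arsenic (adjusted p = 1.46e-13), 0.61 ± 0.17 with cadmium (0.0072), 0.37 ± 0.10 with copper (0.00989) and 0.72 ± 0.09 with thiram (2.24e-10). The cadmium call was lost when the set-aside library was added, at a log2 fold change of 0.28, and when either well was left out, which leaves 1 well assumed to vary like the other groups, and the copper call was lost without replicate 4, at 0.32.

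**Figure D2:**
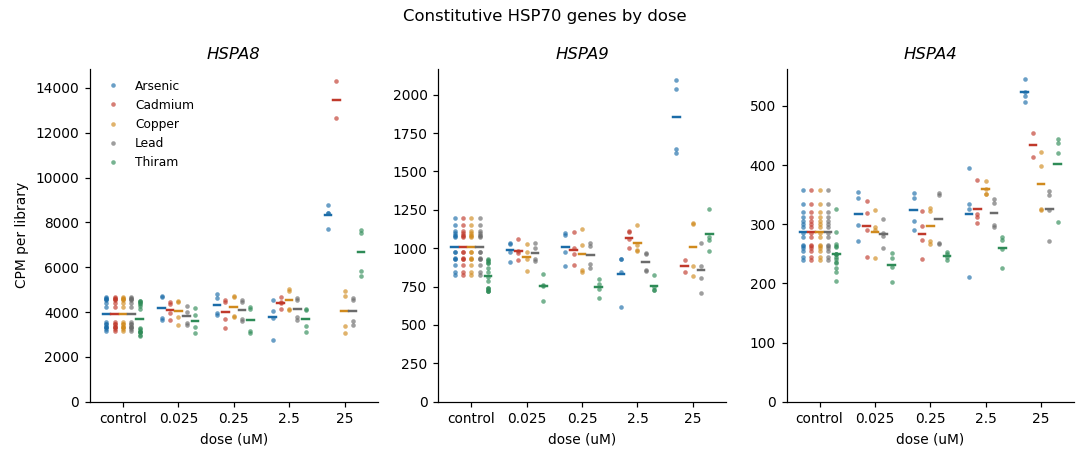
Levels of HSPA8, HSPA9 and HSPA4 in CPM in each control and dosed library of arsenic, cadmium, copper, lead and thiram, points being libraries and bars group means. HSPA8 reaches 14284 CPM with cadmium at 25 µM, where HSPA9 stays at 846 and 922 CPM, within the range of its controls.

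Among the restricted members HSPA2 stood out. It read 57.9, 51.2, 37.3 and 37.8 CPM with arsenic against 3.56 to 12.6 CPM in controls, and 47.3, 81.3, 72.3 and 80.7 CPM with thiram against 0 to 18.1 CPM. Neither group overlapped its controls. The log2 fold changes were 2.87 ± 0.21 (adjusted p = 2.81e-22) and 3.01 ± 0.23 (4.65e-22). Both cadmium wells had 0 reads of HSPA2, which at a floor of 3 counts over the group is at least 3.55-fold lower than the control mean of 7.06 CPM, by a bound that covers counting error only. That difference was not called by edgeR (adjusted p = 0.47), while DESeq2 called it (adjusted p = 0.00674).

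HSPA1L, which lies head to head with HSPA1A, read 4.82, 2.99, 6.63 and 7.90 CPM with arsenic, 6.28 and 19.6 CPM with cadmium and 12.4, 4.57, 8.86 and 0 CPM with thiram. Its controls read 0 to 3.67 CPM and 0 to 2.47 CPM. The log2 fold changes were 2.63 ± 0.46 with arsenic (adjusted p = 4.68e-07) and 4.10 ± 0.70 with thiram (5.75e-07, not called in the high-numbered wells alone), and the cadmium difference of 3.76 was called by DESeq2 (0.0153) but not by edgeR (0.0659). HSPA4L was called in none of the 84 chemical and dose groups by edgeR, but with cadmium its log2 fold change of 0.80 (adjusted p = 0.0577) became a call with RLE scaling, at 0.97 (0.0168), and with DESeq2, at 0.94 (3.02e-05). Its 25 µM wells read 56.2 to 71.0 CPM with arsenic, 96.7 and 157 CPM with cadmium and 59.4 to 93.2 CPM with thiram, against 53.4 to 102 CPM and 39.7 to 96.4 CPM in the controls.

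**Figure D3:**
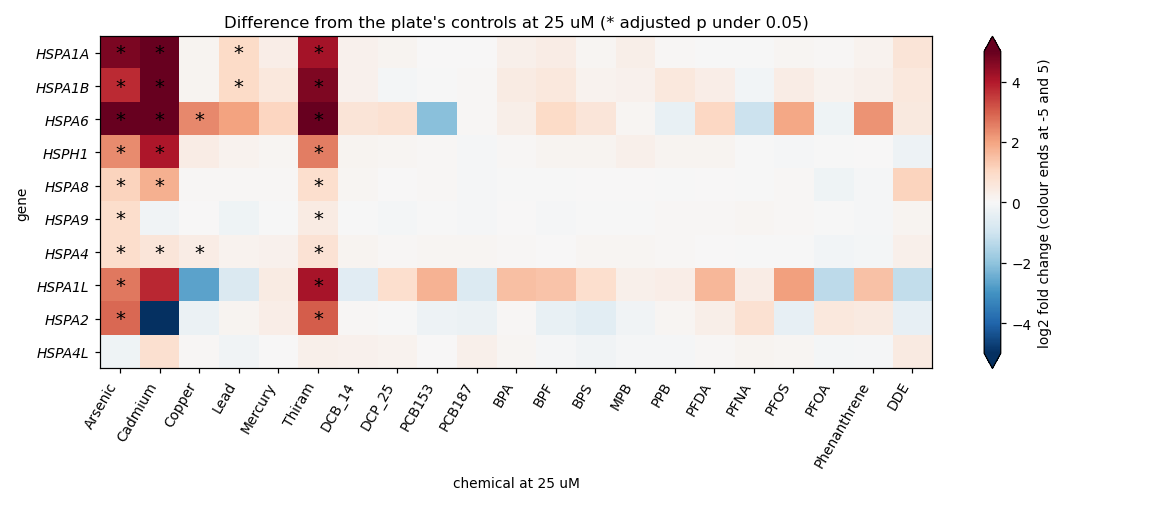
Log2 fold change of each of the 10 members at 25 µM against its own plate's controls for the 21 chemicals, by edgeR. Arsenic, cadmium and thiram hold the high values, up to 12.85 for HSPA6 with cadmium, and asterisks mark the 28 calls.

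The shift between groups of members was visible within single libraries. The 10 genes took 0.564% ± 0.118 (SD, n = 15) of all reads in the controls of the metals plate, 1.33% ± 0.06 (n = 4) with arsenic and 1.33% ± 0.08 (n = 2) with cadmium. They took 0.506% ± 0.088 (n = 15) in the controls of the thiram plate and 1.08% ± 0.14 (n = 4) with thiram. The inducible members made up 14.7% to 18.01% of the family's reads in the arsenic wells, 36.7% and 45.4% in the cadmium wells and 22.99% to 27.5% in the thiram wells, against at most 4.30% in any control of these plates. Per kb of exon, HSPA1A stood at 1.06% ± 0.33 of HSPA8 in the controls of the metals plate, at 11.9% ± 1.6 with arsenic and at 45.9% ± 8.6 with cadmium. On the thiram plate the same ratio was 1.37% ± 0.31 in controls and 12.8% ± 1.9 with thiram. The level of this ratio depends on the exon lengths used, while its change between groups does not. These shares are of all reads, and 39.3% and 46.8% of the cadmium reads were mitochondrial. On the TMM-scaled CPM the 10 genes summed to 5467 ± 812 in the controls of the metals plate, 12868 ± 529.65 with arsenic (n = 4) and 25359 ± 715 with cadmium (n = 2), so the totals of the latter groups were alike as shares of reads and apart on the CPM. The inducible shares of the family's reads do not depend on the scaling, and those of arsenic and cadmium did not overlap.

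**Figure D4:**
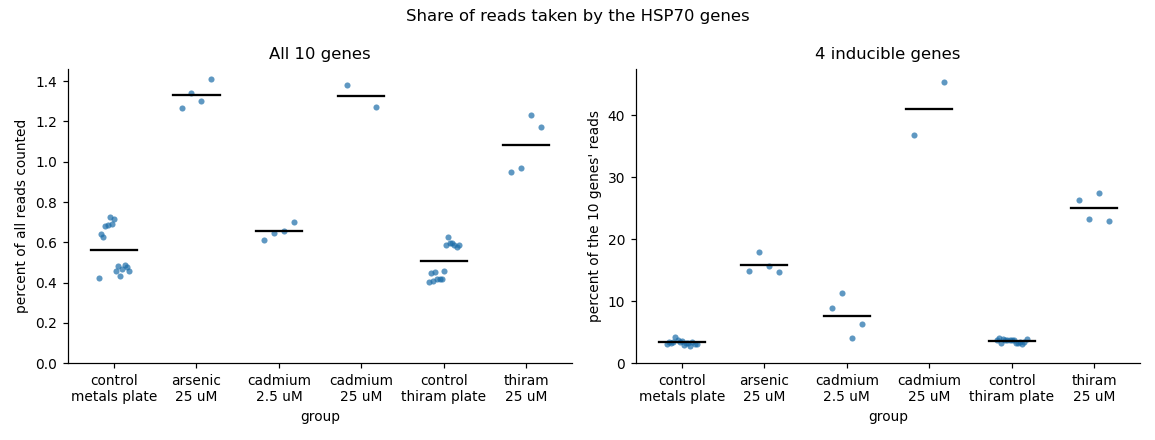
Left, the percent of all counted reads taken by the 10 genes, and right, the percent of those reads that came from the 4 inducible genes, in each library of 4 dosed groups and 2 control groups, points being libraries and bars group means. As shares of raw reads, arsenic and cadmium at 25 µM stand at about the same height on the left, where on TMM-scaled CPM they sum to 12868 and 25359, while on the right the cadmium wells, at 36.7% and 45.4%, lie above the arsenic wells, at 14.7% to 18.01%.

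Arsenic and cadmium share a plate and were compared directly at 25 µM. Of the members, 8 differed, 6 lower and 2 higher with arsenic, where 8.56% of all genes differed in either direction. The inducible members were lower with arsenic, HSPA1A by a log2 difference of -2.62 ± 0.29 (SE, adjusted p = 3.96e-12), HSPA1B by -2.9999 ± 0.28 (8.18e-15), HSPA6 by -2.62 ± 0.27 (4.05e-14) and HSPH1 by -1.68 ± 0.24 (4.73e-08). HSPA8 (-0.69 ± 0.16, adjusted p = 0.00169) and HSPA4L (-1.01 ± 0.31, adjusted p = 0.0213) were lower as well. HSPA9 was higher with arsenic by 1.07 ± 0.16 (adjusted p = 1.8e-07), and HSPA2, with no cadmium read, was at least 23.2-fold higher. HSPA4 (0.27, adjusted p = 0.545) and HSPA1L (-1.13, adjusted p = 0.866) were not called. The count was 5 when replicate 1 was left out of every dosed group, which leaves 1 cadmium well, assumed to vary like the other groups of the plate. The depth and mitochondrial share of the cadmium wells, given above, move with this comparison, and their part in it was not tested. Over all genes with cadmium, the median log2 fold change was -1.42 under TMM scaling, -1.25 under RLE and 0.07 with DESeq2, while with arsenic it was 0.00, 0.14 and 0.15. The 6 members called with cadmium were higher and called in each of these fits, while HSPA9 was uncalled in each.

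The response was concentrated at the top dose. Over the 21 chemicals, 28 of 210 tests of a member were called at 25 µM in 5 chemicals and 6 of 210 at 2.5 µM in 3 chemicals, all higher, where 4.85% and 0.412% of the tests of all genes were called in either direction. Arsenic at 2.5 µM had 0 called members by edgeR, where 1.96% of all genes were called, and 2 by DESeq2. There HSPA1A had its highest uncalled log2 fold change of any group, 0.83, and HSPA9 its lowest, -0.27. At 0.25 µM edgeR called 0 of 210, with 23 at an unadjusted p under 0.05 and 0 called by DESeq2. At 0.025 µM it called 0 of 210, with 9 at an unadjusted p under 0.05 and 1 called by DESeq2. Of the tests of all genes, 0.0748% and 0.0104% were called at these doses, so the zeros are near the background.

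Cadmium at 2.5 µM raised the 4 inducible members, where 0.206% of all genes were higher. HSPA1A read 127, 169, 34.3 and 83.0 CPM, HSPA1B 42.2, 66.9, 12.9 and 29.4 CPM, HSPA6 110.6, 200.4, 21.6 and 70.3 CPM and HSPH1 268, 306, 186 and 237 CPM in wells 1 to 4. Well 3 was the lowest for all 4 genes and lay within the control range for HSPA1A, HSPA1B and HSPH1, as did well 4 for HSPH1. The log2 fold changes were 2.36 ± 0.21 (adjusted p = 3.34e-15), 2.24 ± 0.23 (1.85e-12), 7.51 ± 0.32 (2.91e-42) and 0.74 ± 0.16 (0.00533). With the low-numbered wells and controls alone they were 3.04, 2.96, 8.23 and 1.22, and HSPA8 (0.34, adjusted p = 2.84e-06) and HSPA4L (0.46, 0.0267) were called higher as well. With the high-numbered ones alone they were 1.18 (adjusted p = 0.0242), 0.91 (0.666), 5.98 (6.48e-13) and 0.17 (0.94), and HSPA1B and HSPH1 were no longer called. The HSPH1 call was also lost without replicate 1 or 2.

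Thiram at 2.5 µM raised HSPA6 alone among the members, where 0.0329% of all genes were higher. The wells read 0.572, 1.65, 13.9 and 47.6 CPM, of which the first 2 lay inside the control range of 0 to 4.76 CPM. The log2 fold change of 4.31 ± 0.48 (adjusted p = 2.95e-11) fell to 2.57 without well 4 and lost its call there, in DESeq2 and with the low-numbered wells alone, at 0.43. Copper at 2.5 µM raised HSPA4, at 351, 352, 374 and 359.5 CPM, where 1.41% of all genes were higher. Its log2 fold change of 0.33 ± 0.10 (adjusted p = 0.033) lost its call with DESeq2, with RLE scaling, with the high-numbered wells and with any 1 replicate left out. HSPH1 and HSPA8 were also called with a term for the numbers, at 0.36 (adjusted p = 0.00704) and 0.22 (0.0103), and with low numbers alone, at 0.46 (0.000112) and 0.28 (4.82e-05).

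The step from 2.5 to 25 µM raised 9 members with arsenic, 5 with cadmium and 9 with thiram, and 0 with copper, while 16.2%, 4.8%, 10.2% and 0.193% of all genes rose over the same step. For copper 1 member had an unadjusted p under 0.05 by edgeR and DESeq2 called 0. HSPA6 rose over this step by 9.09 ± 0.42 on the log2 scale with arsenic, 5.34 ± 0.29 with cadmium and 6.48 ± 0.25 with thiram. HSPA1A rose by 3.86 ± 0.29, 4.95 ± 0.30 and 3.83 ± 0.19.

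A linear trend over the 4 doses was called for 9 members with arsenic, 7 with cadmium and 9 with thiram, all upward, where 14.2%, 4.18% and 9.24% of all genes trended upward. Per 10-fold step in dose, the slope of HSPA1A was 1.35 ± 0.09 on the log2 scale with arsenic, 2.31 ± 0.11 with cadmium and 1.16 ± 0.06 with thiram. That of HSPA6 was 2.73 ± 0.23, 4.61 ± 0.17 and 3.77 ± 0.14, and that of HSPA8 was 0.28 ± 0.04, 0.53 ± 0.05 and 0.27 ± 0.05. The order of these slopes, HSPA6 before HSPA1A before HSPA8, was the same for the 3 chemicals. A rise at the top dose alone also gives an upward slope in such a fit. The trend calls and this order therefore do not separate a graded response from a step at the top dose. At 2.5 µM, 0 members were called with arsenic, 1 with thiram and 4 with cadmium.

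Copper at 25 µM raised HSPA6 and HSPA4. HSPA6 read 3.21, 5.27, 1.72 and 0.925 CPM, with 1 well above the control maximum of 3.67 CPM, and its log2 fold change of 2.41 ± 0.62 (adjusted p = 0.00697) lost its call in DESeq2, with the high-numbered wells alone and without replicate 1 or 2. The other members named for copper were not called: HSPA1A 0.14 ± 0.25 in log2 fold change (adjusted p = 0.875), HSPA1B 0.15 (0.882), HSPH1 0.37 (0.204), HSPA8 0.05 (0.92) and HSPA9 0.00 (1.0). HSPH1 was called with the low-numbered wells alone, at 0.35, and with a term for the numbers, at 0.34. HSPA1A read 25.3, 21.2, 24.5 and 15.1 CPM with copper, all inside the control range.

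Lead at 25 µM raised HSPA1A, at 39.5, 30.8, 40.2 and 42.4 CPM, and HSPA1B, at 14.6, 12.9, 14.2 and 19.3 CPM. The HSPA1A wells and 3 of the HSPA1B wells lay inside the control ranges of 11.6 to 48.8 and 2.82 to 15.96 CPM. The log2 fold changes were 0.95 ± 0.23 (adjusted p = 0.00515) and 0.97 ± 0.25 (0.0101), and neither was called with the high-numbered wells alone, at 0.70 (0.176) and 0.58 (0.52), or by DESeq2. The HSPA1B call was also lost without replicate 1 or 4. HSPA6 with lead, at 1.55, 2.09, 2.87 and 2.16 CPM, was not called (2.01, adjusted p = 0.0696). HSPA9 with lead, at -0.23 (adjusted p = 0.175) and with 2 wells below all controls, was called lower by DESeq2, at -0.27 (0.0418), with a term for the numbers, at -0.24 (0.00759), with low numbers alone, at -0.27 (0.00318), and without replicate 3, at -0.33 (0.0343).

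For copper and lead, wells of the same number deviated together across doses, so the number was also used as a block within the libraries of the chemical. Blocked, the dose trend was called for HSPA6, HSPH1 and HSPA4 with copper, where 8.91% of all genes trended in either direction, and for HSPA1A, HSPA1B, HSPA9 and HSPA4 with lead, where 9.7% did. The slope was 0.66 ± 0.21 per 10-fold step for HSPA6 with copper (adjusted p = 0.0434) and 0.26 ± 0.05 for HSPA1A with lead (adjusted p = 3.53e-05), while HSPA9 with lead had a slope of -0.06 ± 0.02 (adjusted p = 0.00972). Unblocked, none of these trends was called in the fit of the whole plate, where edgeR called 0 members for either chemical, with 2 at an unadjusted p under 0.05 for each, and DESeq2 called 1 for copper and 0 for lead.

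The remaining 16 chemicals had no called member at 25 µM. For the 14 other than DDE and MPB, where 0.0186% of all tests of a gene were called in either direction, edgeR called 0 of 140 tests, with 15 at an unadjusted p under 0.05 and 0 called by DESeq2. For DDE, where 7.77% of genes changed in either direction, it called 0 of 10, with 2 at an unadjusted p under 0.05 and 0 by DESeq2. For MPB, where 1.38% of genes changed, it called 0 of 10, with 1 at an unadjusted p under 0.05 and 0 by DESeq2. Over the 18 chemicals other than arsenic, cadmium and thiram, the uncalled log2 fold changes at any dose ran from -0.36 to 0.65 for HSPA1A, -0.25 to 0.38 for HSPH1, -0.23 to 0.23 for HSPA9 and -0.16 to 0.27 for HSPA4. Group means of HSPA1A over these 71 uncalled groups ran from 18.9 to 47.4 CPM and those of HSPA6 from 0 to 2.26 CPM. The fitted log2 fold changes of the sparsely read HSPA6 and HSPA1L ran wider, from -6.15 to 2.25 and from -3.88 to 2.04.

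HSPA8, whose uncalled values ran from -0.22 to 1.13, was highest with DDE. Its 25 µM wells read 3512.5, 4243, 4779.5 and 4617 CPM, and its controls ran from 228 to 3566 CPM, with 3 controls at 228, 253 and 772 CPM. The log2 fold change of 1.13 ± 0.48 was not called (adjusted p = 0.122). Without the libraries numbered 1, 8, 9 and 16 it was 0.85 and called. From 0.025 to 25 µM DDE the 10 genes summed to 5497 ± 1981, 6121 ± 828, 5749 ± 1658.5 and 6031 ± 620 CPM, against 3558 ± 1472 CPM in the controls. By edgeR a DDE dose trend was called for 0 of the 10 members and 0 of 13921 genes, so these values do not set the top dose apart. The DDE wells are labelled DMSO and these controls water, and the part of the solvent was not tested. The controls of the DDE plate also differed from the other controls in the epithelial markers, whose sum was 11030.0 to 18490.0 CPM against 2618 to 4653 CPM elsewhere. Whether this moves with the HSPA8 values for a shared reason was not tested.

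Within plates, the members' control levels moved with the well number. The first 8 controls were lower than the last 7 for 6 members on the metals plate, 2 on the BPA plate and 3 on the thiram plate, where 9.47%, 3.09% and 2.2% of all genes were lower. On the PFOA plate, where 0.164% of genes were lower, edgeR called 0 of 8 members, with 1 at an unadjusted p under 0.05 and 0 by DESeq2. HSPA8 averaged 3361 ± 134 CPM (SD, n = 8) in the low-numbered and 4525 ± 165 CPM (n = 7) in the high-numbered controls of the metals plate, a log2 difference of -0.45 ± 0.04 (SE, adjusted p = 4.28e-14). On the thiram plate it averaged 3108 ± 122 CPM (n = 8) and 4369 ± 122 CPM (n = 7), a difference of -0.52 ± 0.04 (1.34e-18). HSPH1 differed by -0.62, -0.30 and -0.37 on the metals, BPA and thiram plates. Depth moved with the numbers too: the high-numbered controls held 1.93 M to 5.40 M reads on the metals plate and 2.31 M to 4.73 M on the thiram plate, against 12.6 M to 23.9 M and 15.1 M to 22.5 M in the low-numbered ones, without overlap. Its part in the shift was not tested, and the labels do not say what the numbers stand for.

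**Figure D5:**
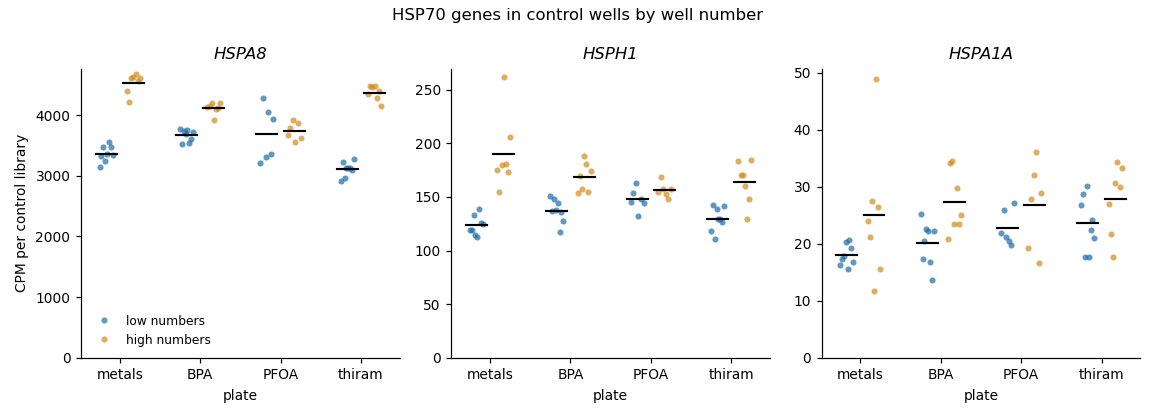
Levels of HSPA8, HSPH1 and HSPA1A in the solvent control wells of 4 plates by low or high well number, in CPM, points being libraries and bars group means. On the metals and thiram plates the low-numbered HSPA8 points, averaging 3361 and 3108 CPM, lie below the high-numbered ones, averaging 4525 and 4369 CPM.

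The large changes at 25 µM were present within each numbering group. With arsenic, the log2 fold changes in low- and high-numbered wells were 4.95 and 4.33 for HSPA1A, 10.41 and 9.87 for HSPA6 and 1.37 and 0.96 for HSPA8. With thiram they were 3.96 and 4.21 for HSPA1A, 10.58 and 11.24 for HSPA6 and 0.87 and 0.78 for HSPA8. Both cadmium wells were low-numbered, and against the low-numbered controls they gave 7.46 for HSPA1A, 12.94 for HSPA6 and 2.02 for HSPA8. The solvent itself was compared on the PFOA plate, where 4.08% of genes differed between the 4 water and 12 DMSO controls. Of the 10 members edgeR called 0, with 2 at an unadjusted p under 0.05, and DESeq2 called 1, HSPA9.

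The partners of HSP70 were followed in 7 lists of 51 genes, of which 48 were tested. Arsenic raised 22 and lowered 7 of them (median log2 fold change 0.29 against 0.00 for all genes), cadmium raised 21 and lowered 3 (0.44 against -1.42), thiram raised 23 and lowered 4 (0.39 against -0.11) and copper raised 3 and lowered 2 (0.05 against -0.01). The cadmium median over all genes was 0.07 with DESeq2, so the gap to -1.42 depends on the method. The shares of all genes called higher and lower were 23.2% and 18.2% with arsenic, 5.67% and 5.38% with cadmium, 13.7% and 12.2% with thiram and 2.88% and 2.21% with copper, so the copper counts are near the background. Of the 10 genes in the list of J-domain partners, which hand clients to HSP70, 8 rose with arsenic, 6 with cadmium and 6 with thiram. None of that list fell, but DNAJA3 and HSCB, also J-domain proteins, were listed with the mitochondrial partners. DNAJA3 was called lower with cadmium (-1.32) and thiram (-0.67) and was not called with arsenic (0.06). HSCB was called higher with arsenic (0.71) and was not called with cadmium (0.24) or thiram (-1.14). The 3 tested small heat shock proteins, which hold unfolded clients without ATP, rose with all 3 chemicals. Of the 5 genes of heat shock factors and their binding proteins, 0 were called with arsenic and cadmium, and 1 rose and 2 fell with thiram.

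CRYAB, a small heat shock protein of lens and muscle, was the highest called partner in all 3, at 123 ± 10.2 CPM (n = 4) with arsenic, 688 ± 29.6 CPM (n = 2) with cadmium and 106 ± 24.5 CPM (n = 4) with thiram. Its controls averaged 0.433 ± 0.791 CPM (n = 15) and 0.628 ± 1.59 CPM (n = 15). HSPB8, a small heat shock protein that works with BAG3, followed with arsenic (log2 fold change 4.32 ± 0.27) and thiram (3.12 ± 0.36), then DNAJA4 with arsenic (3.43 ± 1.13) and DNAJB1, a J-domain protein, with thiram (2.95 ± 0.09). DNAJA4 was near the floor, at 1.09 ± 1.34 CPM (n = 4) with arsenic against 0.056 ± 0.125 CPM (n = 15) in controls, so its rank rests on few reads. With cadmium, DNAJB1 (5.28 ± 0.16) and BAG3, an exchange factor (5.01 ± 0.14), were next. The lowest called partners were BAG1 (-1.16), STUB1 (-0.80) and HSPBP1 (-0.75) with arsenic, DNAJA3 (-1.32), STUB1 (-0.65) and HSPD1 (-0.40) with cadmium, and HSBP1L1 (-0.79), DNAJA3 (-0.67) and STUB1 (-0.57) with thiram. STUB1, a ubiquitin ligase that marks HSP70 clients, was called lower with all 3. With copper the called partners were HSPB8 (1.19), HSPA5 (0.39) and CDC37 (0.35), higher, and HSPD1 (-0.19) and BAG1 (-0.55), lower.

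Outside the 10 members, the genes whose group means ran most like HSPA1A over the 21 groups of the metals plate, among 6707 genes with a mean of at least 20 CPM, were ZFAND2A (Pearson r = 0.99), DNAJB1 (0.98), ABL2 (0.98), PPP1R15A (0.98) and DNAJA1 (0.98). Those most like HSPA8 were DNAJA1, SERPINH1, UFD1, PSMC4 and HSPA5. Over the 21 groups of the thiram plate, among 6741 genes, those most like HSPA1A were GADD45B, MT1F, DNAJB1, BAG3 and LMO4, and those most like HSPA8 were HSP90AB1, RSRC2, PMAIP1, EIF4A2 and DNAJB1, each at r of 0.98 or 0.99. Within the family, HSPA1B (r = 0.99) and HSPH1 (0.98) ran with HSPA1A as closely as these on the metals plate, and HSPH1 ran with HSPA8 at r = 0.99 on both plates, above every gene named for it. Of the constitutive members, HSPA8 ran with HSPA1A at r = 0.96 on both the metals and the thiram plate. On these plates HSPA4 ran with HSPA1A at 0.78 and 0.86, and HSPA9 at 0.31 and 0.88. These are descriptions over groups that share controls, plates and a few high-dose groups.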

How the data were processed

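The values are whole-number counts of reads per gene symbol and library, as deposited by the authors. The submitters' processing notes name STAR, featureCounts, FastQC, MultiQC and GRCh38, with no versions; no source used here gives the strand setting or the handling of reads that match several genes. Counts enter the tests as deposited, and depths of the 5 plates are given with the results.

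Libraries were grouped by their labels and assigned to a plate by barcode. Of 402 libraries, 1 cadmium library with the barcode of another plate was set aside. Each plate was fitted with edgeR 4.0.16 (R 4.3.3) by its quasi-likelihood test, with 1 mean per chemical and dose, filterByExpr (minimum count 10, minimum total count 15), TMM scaling and a common dispersion from the 5% most abundant genes. P-values were adjusted by Benjamini-Hochberg over all genes tested in a comparison and called under 0.05. A standard error is the log2 fold change divided by the square root of F. CPM are counts scaled by the TMM library size. CPM per kb divide by the merged length of all GENCODE exons of the gene, since no RefSeq exon length was used here. Dose trends weight the 4 doses by -3, -1, 1 and 3. Floors of 3 counts cover counting error only. Promoters came from RefSeq. The fit was tested on simulated data.

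The alternatives were RLE scaling, DESeq2 1.42.0, no count filter, the compared groups alone, low- or high-numbered libraries alone or as a term, each replicate left out, the replicate number as a block, the set-aside library added, and DDE without libraries numbered 1, 8, 9 and 16. Numbers were taken to pair wells where every correlation between same-numbered wells of different doses was over 0.1: copper (lowest 0.197), lead (0.436), mercury (0.395) and PFOA (0.296) met this, of the chemicals other than DDE, which was not checked; the labels say nothing of what a number marks. All 10 members are described, with full statistics for those called at 25 µM and for HSPA1A, HSPA1B, HSPA6, HSPA8, HSPA9 and HSPH1 in arsenic, cadmium, copper and thiram, and the 3 highest and 3 lowest called partner genes are named. HSPA7, and single calls made by 1 alternative, were named after their values were seen. The members and lists were chosen with earlier results of these data known.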

Additional observations from a re-analysis of the deposited data

Results flagged for a closer look

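In 4 of 80 sets of replicate values tested, 1 library lay far from the others by Dixon's test, and chance flags about 1 in 20 such sets. HSPA1L was at 1.17 CPM in water control 47 of the PFOA plate, against 0 to 0.0679 CPM in the other 3, and at 9.16 CPM in control 16 of the DDE plate, against 0 to 2.93 CPM in the other 7. HSPA1L was also at 0.540 CPM in replicate 4 of copper at 25 µM, against 0 to 0.0642 CPM in the other 3. HSPA2 was at 18.5 CPM in water control 48 of the PFOA plate, against 7.64 to 8.82 CPM in the other 3.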

How the results depend on the processing

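The counts of called members kept within 1.5 times their value in 138 of 158 recomputations over 16 results, and single members kept their direction and side of the threshold in 399 of 443 over 41, with 29 calls lost, 3 gained and 12 directions turned. The arsenic and thiram counts at 25 µM stayed at 9 with each replicate left out, and that of cadmium ran from 5 to 6. The copper count of 2 became 1 with DESeq2, 1 with high numbers alone and 1 to 2 with a replicate left out. The lead count of 2 (HSPA1A and HSPA1B) became 1 with DESeq2 (HSPA9, lower, in place of both), 0 with high numbers alone and 1 to 3 with a replicate left out. DDE had 1 call (HSPA8) without libraries 1, 8, 9 and 16, and MPB had 1 (HSPH1, 0.41) with low numbers alone. The 14 others had 1 call with the compared groups alone, 1 with low numbers alone (HSPA8 with PFOA, -0.50) and 1 with no filter. With low numbers alone the counts were 11 at 2.5 µM, 3 at 0.25 µM and 1 at 0.025 µM, and DESeq2 called 1 at 0.025 µM and 1 between solvents. Arsenic at 2.5 µM went from 0 to 2 calls with DESeq2, 2 with low numbers alone and 3 with high numbers alone. It had 1 call with no filter, with a number term, without replicate 1 and without replicate 2. Arsenic against cadmium ran from 5 to 8 with a replicate left out.

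All reversed members were uncalled copper values at 25 µM: HSPA1A at -3.6e-07 with DESeq2 and -0.33 with high numbers alone, HSPA1B at -0.11 with high numbers alone, HSPA8 at -0.057 with low numbers alone and -0.039 to 0.15 with a replicate left out, and HSPA9 at -0.031 with DESeq2, -0.027 with RLE, -0.10 with low numbers alone, -0.013 with a number term and -0.073 to 0.085 with a replicate left out. The cause of these changes was not tested, apart from the fewer libraries in settings that leave libraries out.

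With the replicate block, in the libraries of 1 chemical, called dose trends went from 25 to 32 (copper 0 to 3, lead 0 to 4; with those libraries alone and no block, 0 to 1 each, and cadmium 7 to 8) and steps from 2.5 to 25 µM from 23 to 24 (cadmium 5 to 6), and the block changed the count in no other comparison. Low, high and term settings for the well number were not run for the DDE plate. Depth limits HSPA6 and HSPA1L, which had 0 reads in some controls, and the 2 cadmium wells at 25 µM.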
